A study of Mus musculus with 8 samples.

Results

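Agtr1b, P2ry6, Ltb4r1, Svop, Eva1c, Mab21l3, Zfp365, Zfp750, 1700007K13Rik and D630023F18Rik are 10 genes whose RNA stood far higher in mouse embryos exposed to hydroxyurea than in embryos of saline-treated dams. They are 10 of the 14630 named genes that could be tested, among 23120 genes and unnamed array features in all. They were chosen from earlier results of these arrays for the size of that difference and as lying outside the textbook p53 targets. The list of 45 well-known p53 target genes used here leaves the 10 out by construction, so their absence from it is no result. The difference between hydroxyurea and saline is therefore given for them as a description, without a test. All probes carrying a RefSeq accession of one of the 10 symbols were taken, which gave 11 probes, 1 for each of 9 genes and 2 for Mab21l3.

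The arrays measured total RNA of whole CD-1 mouse embryos at gestational day 9, collected 3 h after the dams had received 400 mg/kg hydroxyurea or saline by intraperitoneal injection. Each group holds 4 samples on 4 Agilent 1-colour (Cy3) arrays, and the title of the series is about p53 signalling. The design text speaks of 4 independent experiments, but the labels do not say which samples belong to one experiment or litter, or how many embryos were pooled. The p-values below measure only the spread between these samples. Replicate numbers are names and pair nothing. Hydroxyurea 1 and 2 shared slide 1 with saline 1 and 2, and the other 4 arrays were on slide 2.

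Hydroxyurea blocks ribonucleotide reductase, starves replicating cells of deoxynucleotides and harms the embryo during organogenesis. Stalled replication forks activate checkpoint kinases that stabilise the transcription factor p53, which raises transcription of genes for cell cycle arrest, repair and apoptosis. The 10 genes are of several kinds. Ltb4r1, P2ry6 and Agtr1b encode G protein-coupled receptors, for leukotriene B4, for UDP and for angiotensin II respectively. Svop encodes a transporter-like protein of synaptic vesicles, and Eva1c a membrane protein that binds heparin and SLIT proteins. Mab21l3 belongs to the MAB21 family, Zfp365 acts in genome stability at replication forks and telomeres, and Zfp750 is a transcription factor of epidermal differentiation. The human counterpart of Zfp365 has been described as a p53 target. For all 10 genes the choice says only that they are missing from the list of 45, not that p53 leaves them unregulated.

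Promoters were examined because the 10 genes moved together and the series asks about p53, which binds pairs of a 10-letter consensus, the p53 decamer. The RefSeq table of assembly GRCm38.p6 held the promoter of 7 of the 10 genes, from 250 bases before the annotated start to 50 bases after it. Svop, P2ry6 and Zfp750 are not in that table. A script searched both strands for the decamer without mismatch, and for a paired site of 2 decamers with at most 13 bases between them and at most 2 mismatches over the 20 letters, none in the central C and G of either decamer. A decamer is part of some paired sites, so the searches overlap. The 4 promoters with a match to either are shown on the strand of the gene, 5′ to 3′, with the matches in capitals. They lie at chr2:28466275-28466574 (1700007K13Rik), chr1:65123165-65123464 (D630023F18Rik), chr3:20367128-20367427 (Agtr1b) and chr10:67912613-67912912 (Zfp365), all on the minus strand.
1700007K13Rik: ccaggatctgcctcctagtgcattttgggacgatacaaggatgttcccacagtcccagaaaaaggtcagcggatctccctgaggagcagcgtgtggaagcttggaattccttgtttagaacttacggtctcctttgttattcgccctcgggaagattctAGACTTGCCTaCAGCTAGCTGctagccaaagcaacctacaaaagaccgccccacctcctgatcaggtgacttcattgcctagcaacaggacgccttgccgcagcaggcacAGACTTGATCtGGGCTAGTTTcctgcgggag
D630023F18Rik: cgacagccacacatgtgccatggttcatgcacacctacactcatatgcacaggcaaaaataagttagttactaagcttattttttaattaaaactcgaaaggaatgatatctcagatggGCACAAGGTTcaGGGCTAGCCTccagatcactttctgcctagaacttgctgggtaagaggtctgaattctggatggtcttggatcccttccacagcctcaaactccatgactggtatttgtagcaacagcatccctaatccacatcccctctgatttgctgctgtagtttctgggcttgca
Agtr1b: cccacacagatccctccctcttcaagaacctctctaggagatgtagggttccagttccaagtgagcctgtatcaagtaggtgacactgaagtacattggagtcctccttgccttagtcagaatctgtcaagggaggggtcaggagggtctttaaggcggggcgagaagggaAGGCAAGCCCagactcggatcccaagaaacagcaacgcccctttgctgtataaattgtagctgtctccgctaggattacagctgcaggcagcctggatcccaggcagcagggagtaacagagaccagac
Zfp365: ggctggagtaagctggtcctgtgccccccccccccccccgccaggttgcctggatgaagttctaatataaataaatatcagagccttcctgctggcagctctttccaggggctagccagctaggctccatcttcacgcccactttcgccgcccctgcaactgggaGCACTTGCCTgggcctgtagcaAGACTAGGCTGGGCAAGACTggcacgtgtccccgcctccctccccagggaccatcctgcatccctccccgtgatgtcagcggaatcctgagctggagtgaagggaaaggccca

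In the promoter of 1700007K13Rik a paired site began 91 bases before the start and another 19 bases after it, each with 1 base between the decamers. The first paired site had 2 mismatches and the second 1. D630023F18Rik held 1 paired site 131 bases before the start, with 2 bases between its decamers and 2 mismatches. Zfp365 held 2 overlapping paired sites, 85 and 63 bases before the start, with 12 and 0 bases between the decamers and 2 mismatches each, and no perfect decamer. Agtr1b held a perfect decamer 79 bases before the start and no paired site. The perfect decamer was thus found in 3 of the 7 promoters (1700007K13Rik, D630023F18Rik and Agtr1b) and in 8.36% of all 32851 promoters of the table. The paired site was found in 3 of the 7 (1700007K13Rik, D630023F18Rik and Zfp365) and in 4.09% of all promoters. Among 34 genes of the p53 list with a promoter in the table, 11 held the decamer and 7 the paired site. Other promoter motifs were searched in the same way. The GC box GGGCGG stood in 4 of the 7 promoters (35.7% of all), TATAAA in 2 (13.6%), CCAAT in 2 (37.4%) and the E-box CACGTG in 1 (7.15%). The AP-1 site TGANTCA (7.81% of all) and the cAMP response element TGACGTCA (1.79%) were in none. Such matches are letters in a 300-base window, and no binding was measured.

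Signal of each probe is given as log2 of the processed signal minus the array's 75th percentile, so that 0 is the 75th percentile of that array. Between 48.7% (hydroxyurea 3) and 62.3% (saline 1) of spots on an array were well above background, the scanner software's own detection flag, and 0 spots were saturated. Hydroxyurea 2 and hydroxyurea 3 stood apart from the other hydroxyurea arrays in Prl8a2, a prolactin-family gene of the maternal decidua. Its level was -4.45, 2.40, 6.03 and -6.84 on hydroxyurea 1 to 4, and -7.51, -3.18, -2.03 and -5.65 on saline 1 to 4. The summed scaled signal of the 5 decidua markers ran from 11.6 to 77.6 in hydroxyurea and from 8.80 to 13.8 in saline, Prl3c1 was detected on no array, and 0 of the 4 markers tested were called, by the adjusted p or at an unadjusted p under 0.05. Values without hydroxyurea 2 and 3 are given below. Markers of primitive erythroid cells, heart and trunk or neural tube were detected on all 8 arrays for 6 of 6, 5 of 5 and 8 of 8 genes, so defining markers of the labelled tissue were present. Trunk and neural tube markers summed to 17.4 to 24.3 in hydroxyurea and 23.6 to 28.1 in saline, with 4 of 8 lower and 0 higher at an unadjusted p under 0.05 and 1, Sox10, called lower. Among 4 tested trophoblast markers Ascl2 was called higher and Hand1, which the embryonic heart also expresses, lower. Yolk sac endoderm markers summed to 15.8 to 84.6 in hydroxyurea and 18.6 to 244 in saline, a wide spread within the saline group. Of these markers 5 of 6 were detected on all 8 arrays, and 0 of 6 were called, by the adjusted p or at an unadjusted p under 0.05. The part of these shifts and spreads in the results below was not tested.

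All 10 genes were well above background on all 4 hydroxyurea arrays, and in all 10 the lowest hydroxyurea array exceeded the highest saline array. Over all features such upward separation was found in 7.85%, and nothing is read from the members' count because this contrast chose them. The measured log2 difference, mean of hydroxyurea minus mean of saline, ran from 2.93 (Mab21l3) to 4.15 (1700007K13Rik) among the genes detected on all arrays. Over all 10 it reached 4.24 (Agtr1b, undetected in saline) with a median of 3.31, beside a median of 0.04 over all features. The gap between the lowest hydroxyurea and the highest saline array ran from 2.25 (D630023F18Rik) to 3.79 (1700007K13Rik). Only 5 of the 10 were detected on all 8 arrays, 2 on some saline arrays, and 3 (Agtr1b, P2ry6 and Zfp750) on none of the saline arrays. Those 3 could pass the filter, detection on at least 4 of 8 arrays, only if detected on all 4 hydroxyurea arrays. Nothing is read from their detection there. In whole-embryo RNA, more cells of a type and more RNA per cell cannot be told apart.

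**Figure D1:**
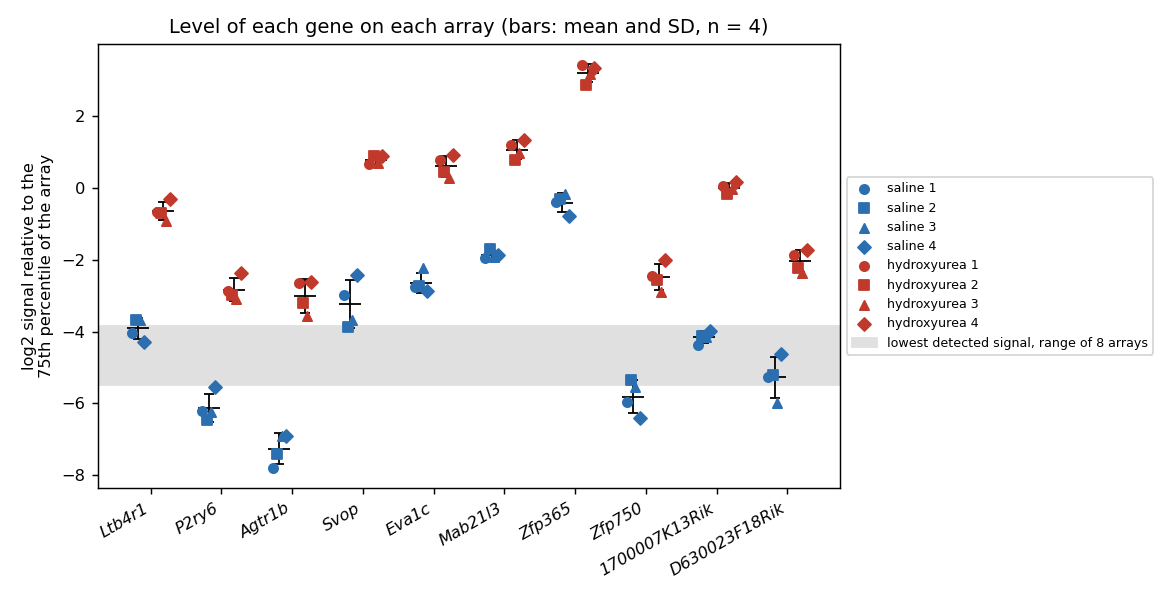
Level of each of the 10 genes on each array, as log2 signal relative to the array's 75th percentile; points are arrays, bars the mean and SD of 4, and the grey band the range over arrays of the lowest detected signal (-5.49 to -3.86). Each gene's 4 hydroxyurea arrays lie above its 4 saline arrays; heights of different genes come from different probes and are not to be compared.

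The 3 receptor genes were faint or undetected in saline embryos. Ltb4r1, the high-affinity leukotriene B4 receptor of leukocytes, read -0.66, -0.70, -0.92 and -0.33 on hydroxyurea 1 to 4, and -4.03, -3.68, -3.67 and -4.28 on saline 1 to 4. Its groups did not overlap, hydroxyurea 4 was highest, and 3 of 4 saline arrays were above background. The group means were -0.65 ± 0.24 and -3.91 ± 0.30 (SD, n = 4 each), a difference of 3.26 or 9.58-fold.

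P2ry6, a receptor for extracellular UDP, read -2.88, -2.99, -3.08 and -2.38 in hydroxyurea, and -6.21, -6.45, -6.25 and -5.55 in saline. No saline array was above background, so its level there is not known. The hydroxyurea mean was therefore set against the lowest signal detected for any probe on each saline array, or the probe's own value if higher. On this basis P2ry6 was 4.46-fold higher in hydroxyurea (2.16 in log2), with measured means of -2.83 ± 0.31 and -6.12 ± 0.39 (SD, n = 4). This is no strict minimum. An undetected P2ry6 spot on saline 4 read -4.46, above that array's lowest detected signal of -4.62. Another background correction, normexp without offset (below), gave P2ry6 a difference of 1.87. This probe is printed 10 times on the array, which shows the reading error directly. Between its spots the SD was 0.13 to 0.30 on hydroxyurea arrays and 0.52 to 0.88 on saline arrays. Of the usable spots, 7 of 7, 10 of 10, 9 of 10 and 10 of 10 were well above background on hydroxyurea 1 to 4, against 2 of 10 on saline 1 and none on the other saline arrays. Repeated spots are 1 sample each time and add no replicates.

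**Figure D2:**
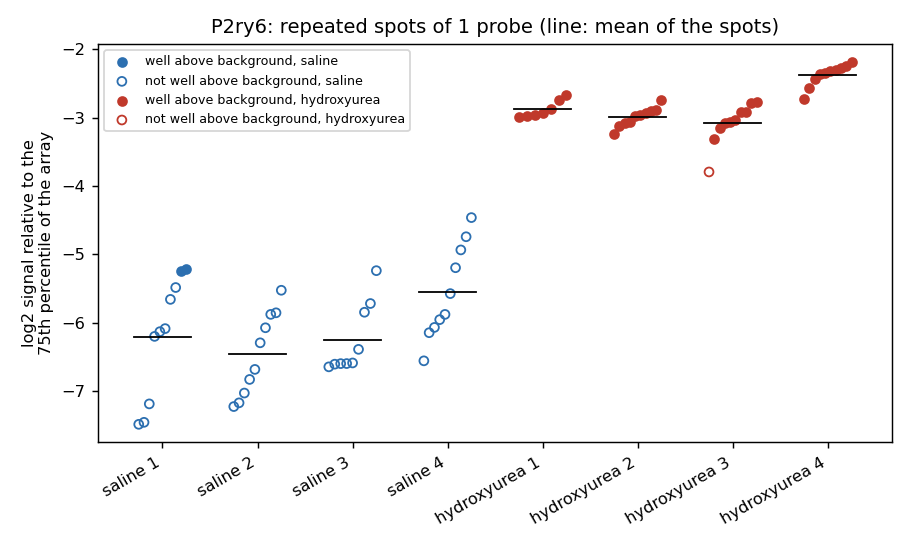
Every usable spot of the P2ry6 probe on each array, as log2 signal relative to the array's 75th percentile; filled points were well above background and the line is the array's mean. The spots scatter more on saline arrays (SD up to 0.88) than on hydroxyurea arrays (SD up to 0.30), and every hydroxyurea spot lies above every saline spot.

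Agtr1b, the second type 1 angiotensin II receptor of rodents, read -2.64, -3.21, -3.57 and -2.62 in hydroxyurea, and -7.79, -7.42, -6.91 and -6.91 in saline. Hydroxyurea 2 and 3 were the lower pair, and the groups did not overlap. It was above background on 0 of 4 saline arrays, with measured means of -3.01 ± 0.46 and -7.26 ± 0.43 (SD, n = 4). Set against the lowest detected signals, as for P2ry6, it was 3.94-fold higher in hydroxyurea, again no strict minimum. Its measured difference of 4.24 rests on saline signal that was not detected, and the comparison with the lowest detected signals gave 1.98. Ltb4r1 and P2ry6 are best known from leukocytes. Of 8 leukocyte markers on the array, 3 were detected on all arrays and Spi1, which encodes a defining transcription factor of the lineage, on none. Their summed scaled signal was 10.1 to 16.3 in hydroxyurea and 16.0 to 30.3 in saline, and 0 of the 4 tested were called, with 1 lower at an unadjusted p under 0.05.

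Svop, whose product resembles the SV2 transporters of synaptic vesicles, read 0.65, 0.87, 0.69 and 0.89 in hydroxyurea, and -2.97, -3.88, -3.67 and -2.42 in saline. It had the tightest hydroxyurea values of the 10 and the widest saline values. The means were 0.77 ± 0.12 and -3.24 ± 0.67 (SD, n = 4), a difference of 4.01 or 16.1-fold, with all 8 arrays above background. Neuron markers, 7 of 7 detected on all arrays, summed to 13.4 to 20.7 in hydroxyurea and 12.8 to 28.4 in saline, and 0 of 7 were called, by the adjusted p or at an unadjusted p under 0.05. Eva1c, whose worm counterpart takes part in axon guidance, read 0.77, 0.43, 0.27 and 0.91 in hydroxyurea, and -2.77, -2.72, -2.23 and -2.87 in saline. Its means were 0.59 ± 0.30 and -2.65 ± 0.29 (SD, n = 4), a difference of 3.24 or 9.47-fold, again with all 8 arrays above background. Hydroxyurea 4 was highest in both genes and no array crossed between the groups.

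Mab21l3 has 2 probes that gave different pictures. The brighter one, detected on all 8 arrays, read 1.20, 0.76, 0.96 and 1.34 in hydroxyurea, and -1.96, -1.70, -1.92 and -1.88 in saline. Its means were 1.06 ± 0.26 and -1.86 ± 0.11 (SD, n = 4), a difference of 2.93 or 7.60-fold, the smallest of the 10. The other probe was above background on no array of either group, so it gives no level and no fold, and its groups overlapped.

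Zfp365, the zinc finger gene linked to fork recovery, was detected on all 8 arrays. It read 3.43, 2.85, 3.15 and 3.32 in hydroxyurea, and -0.40, -0.30, -0.17 and -0.78 in saline. The means were 3.19 ± 0.25 and -0.41 ± 0.26 (SD, n = 4), a difference of 3.60 or 12.1-fold. Zfp750, an epidermal transcription factor, read -2.44, -2.56, -2.90 and -2.02 in hydroxyurea, and -5.95, -5.35, -5.54 and -6.39 in saline. It was above background on 0 of 4 saline arrays, with measured means of -2.48 ± 0.37 and -5.81 ± 0.46 (SD, n = 4). Set against the lowest detected signals, as for P2ry6, it was 5.69-fold higher in hydroxyurea (2.51 in log2). This too is no strict minimum, since normexp without offset gave Zfp750 a difference of 2.29. Markers of surface ectoderm and epidermis, 7 of 7 detected on all arrays, summed to 66.5 to 96.0 in hydroxyurea and 56.4 to 99.4 in saline, and 1 of 7, Grhl3, was called.

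The remaining pair are RIKEN genes named by clone. 1700007K13Rik read 0.06, -0.19, -0.03 and 0.15 in hydroxyurea, and -4.38, -4.12, -4.14 and -3.98 in saline. Its means were -0.002 ± 0.144 and -4.16 ± 0.168 (SD, n = 4), a difference of 4.15 or 17.8-fold, and no other gene of the 10 had so wide a gap between groups. D630023F18Rik read -1.87, -2.22, -2.36 and -1.72 in hydroxyurea, and -5.28, -5.20, -5.99 and -4.61 in saline. Only 1 of its 4 saline arrays was above background. Its means were -2.04 ± 0.30 and -5.27 ± 0.57 (SD, n = 4), a measured difference of 3.23. That saline mean lies below the mean of the lowest detected signals of the saline arrays, -4.99, so the size of the difference rests largely on signal not above background.

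How the signal was corrected before log2 changed the size of these differences, and moved them most in genes near background in saline. With normexp on the median spot signal and an offset of 50, the differences ran from 0.81 (P2ry6) to 3.33 (Zfp365) with a median of 2.07. Without the offset the same correction gave 1.87 (P2ry6) to 3.60 (Svop), median 2.78, and the processed signal with 50 added and no normexp gave 0.96 (P2ry6) to 3.37 (Zfp365), median 2.20. The offset alone thus brought the differences close to those of normexp with offset, and normexp without it moved them less. For Agtr1b the difference was 1.0 with normexp and offset, 2.39 with normexp alone and 0.97 with the offset alone, against 4.24 from the processed signal. Zfp365, detected on all 4 saline arrays, stayed between 3.33 and 3.60. These settings were chosen after the data were seen.

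**Figure D3:**
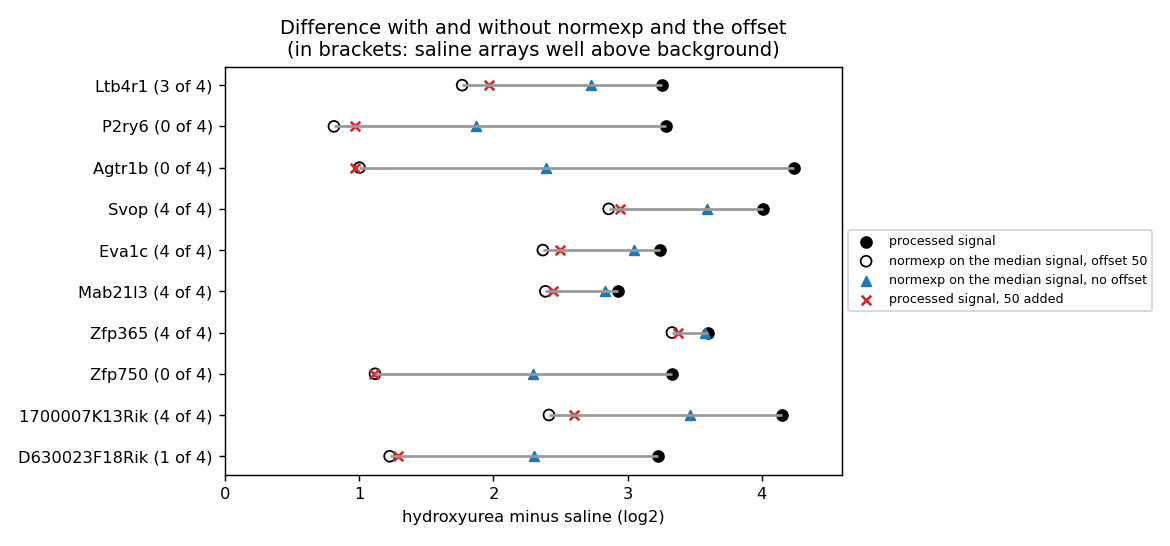
Difference between hydroxyurea and saline (log2) of each gene from the processed signal (filled circles), normexp on the median signal with an offset of 50 (open circles) and without it (triangles), and the processed signal with 50 added (crosses), with the number of saline arrays above background in brackets. Crosses lie near the open circles; Agtr1b moves from 4.24 to 1.0, and Zfp365 from 3.60 to 3.33.

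The 10 genes ranked the hydroxyurea arrays in much the same order. Hydroxyurea 4 was the highest hydroxyurea array in 9 of 10 genes, with Zfp365 the exception, and hydroxyurea 3 was lowest in 6, hydroxyurea 2 in 3 and hydroxyurea 1 in 1. Hydroxyurea 2 and 3 both lay below hydroxyurea 1 and 4 in 9 of 10 genes, with Svop the exception. The median deviation from the group mean was 0.10, -0.17, -0.26 and 0.32 on hydroxyurea 1 to 4. The same medians were 0.09, -0.16, -0.12 and 0.12 over the 42 measured genes of the p53 list, and 0.08, -0.09, 0.05 and -0.01 over all features. The arrays with low values were those with high Prl8a2, and the part of this in the result was not tested. With hydroxyurea 1 and 4 alone the differences from saline ran from 3.13 to 4.62 (median 3.53), and with hydroxyurea 2 and 3 alone from 2.72 to 4.04 (median 3.09).

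**Figure D4:**
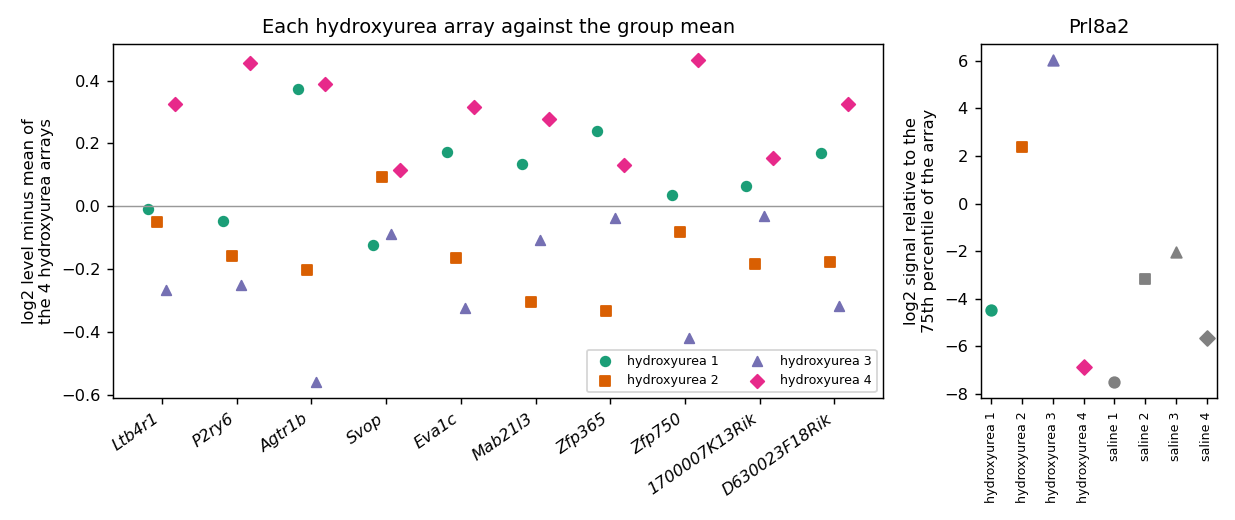
Left, level of each gene on each hydroxyurea array minus the mean of the 4 (log2); right, Prl8a2 on all 8 arrays as log2 signal relative to the 75th percentile. Hydroxyurea 2 and 3 lie below hydroxyurea 1 and 4 in 9 of 10 genes and carry the highest Prl8a2 values, 2.40 and 6.03.

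Each slide held 2 arrays of each group. Within slide 1 the differences ran from 2.81 (Mab21l3) to 4.68 (Agtr1b), and within slide 2 from 3.04 (Mab21l3) to 4.12 (1700007K13Rik), values that average to the difference that chose the genes. The change of the difference between slides, a contrast that the choice did not use, was called in 0 of 10 genes and in 0% of all features by limma with Benjamini-Hochberg adjustment. At an unadjusted p under 0.05 it was found in 0 of 10 and in 218 of 23120 features. The widest change was in Agtr1b, -0.87 with an SE of 0.52 (adjusted p = 1.0), and 5 of the 10 differences were larger on slide 2. The slide effect itself was called in 0 of 10 genes and in 0.00433% of all features, and at an unadjusted p under 0.05 in 0 of 10 and in 934 features. Only 2 arrays per group and slide stand behind each of these values. For Agtr1b, P2ry6 and Zfp750 no saline array was above background, so their slide values rest partly on undetected signal.

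Among the 14602 named genes detected on at least 1 array of each group, 1700007K13Rik ranked first and Svop second by difference in processed signal. They were followed among the 10 by Zfp365 at rank 5, Ltb4r1 at 9, Eva1c at 10, D630023F18Rik at 11 and Mab21l3 at 17. Other genes of that size lie on both sides of the p53 list. On the list and detected in both groups stood Pmaip1, a BH3-only inducer of apoptosis (3.61), the death receptor gene Fas (3.46), Trp53inp1 (3.23), the cyclin gene Ccng1 (3.20), the CDK inhibitor gene Cdkn1a (3.02) and Phlda3, a repressor of AKT signalling (2.96). Ddit4l, an inhibitor of mTOR signalling (3.37), Anxa8, an annexin (2.95), Inka2 (2.71) and Insyn2a (2.64) are neither on the p53 list nor among the 10. Mab21l3 at 2.93 is thus just below Anxa8 in the processed signal. The 10 genes are not the only large risers outside the p53 list. With normexp and offset Anxa8 (1.65) lay below Mab21l3 (2.39), and a second Anxa8 probe read only 1.43 in the processed signal. Normexp with offset also put Zfp365 (3.33), Ccng1 (3.06) and Pmaip1 (3.02) above Svop (2.86) and 1700007K13Rik (2.41). Without the offset Svop (3.60) and Zfp365 (3.58) lay above 1700007K13Rik (3.47). In the authors' deposited table of changed genes all 10 appeared among 1346 probes, with differences from 2.92 to 4.24 (median 3.30) computed from that table's own array values. That table comes from the same arrays and adds no independent measurement.

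The p53 list, chosen with earlier results of these data known, gives the setting of these genes. Of 45 genes, 42 could be tested, and 23 rose and 0 fell (limma, Benjamini-Hochberg adjusted p under 0.05; 30 and 0 at an unadjusted p under 0.05), against 2.78% of all features higher and 3.4% lower. The list's median difference was 0.87, beside 0.04 over all features. Trp53 itself read -0.67 (SE 0.24, adjusted p = 0.129) and Mdm2, the p53 ubiquitin ligase, 0.78 (SE 0.21, adjusted p = 0.0657). Neither passed in the main fit, which used the processed signal of all 8 arrays and the filter on at least 4 of them. With hydroxyurea 1 and 4 alone 25 of 42 list genes rose, Mdm2 was called higher by 1.1 (adjusted p = 0.0148) and Trp53 lower at -1.01 (adjusted p = 0.0258). Mdm2 was also called without hydroxyurea 2 alone (adjusted p = 0.0334), with the filter on all 8 arrays (0.0464), with normexp (0.0164 with and 0.0291 without offset) and with the offset alone (0.0462). Profiles most like the mean profile of the 10 genes over the 8 arrays were those of Trp53inp1 (Pearson r = 0.998), Phlda3 (0.997), Tnfrsf10b (0.997), Pmaip1 (0.996) and Ccng1 (0.996). These r values describe 8 arrays in 2 separate groups and mostly restate that all of these genes differ between the groups. All 5 are on the p53 list.

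Relatives and pathway partners of the 10 genes, on 6 lists drawn up by function, mostly did not pass the test. Over the 65 measured genes 6 rose and 2 fell, with a median difference of 0.21. Over all features 2.78% were called higher and 3.4% lower. The count of 8 changed on leaving out any 1 array, as did the count over all features (1429, and 524 to 3739). The family count was 17 without hydroxyurea 2, 6 without hydroxyurea 3 or saline 2, and 4 without saline 4. It was 3 without hydroxyurea 1, hydroxyurea 4, saline 1 or saline 3. With hydroxyurea 1 and 4 alone 12 rose and 5 fell.

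Around Ltb4r1, 1 of 10 leukotriene and lipid mediator genes rose and 1 fell (median 0.60). At an unadjusted p under 0.05 by limma, 7 of the 10 were higher and 1 lower. Alox5, the 5-lipoxygenase that starts leukotriene synthesis, read -1.01, -0.69, -1.15 and -0.36 in hydroxyurea, and -4.00, -2.98, -3.12 and -3.30 in saline. It rose by 2.55 (SE 0.26, adjusted p = 0.00106), its groups did not overlap, and it stayed past the threshold without any 1 array. The size of the Alox5 difference depended on the correction. It was 1.58 with normexp and offset, 2.29 with normexp alone and 1.64 with the offset alone, and stayed called in each. Ltc4s, which turns the pathway toward cysteinyl leukotrienes, read -0.91, 0.44, -0.23 and -0.93 in hydroxyurea, and 1.41, 1.38, 0.65 and 0.72 in saline. It fell by 1.45 (SE 0.33, adjusted p = 0.0360). Its call held without hydroxyurea 2 (adjusted p = 0.00864) and was lost on leaving out any other array (adjusted p from 0.0584 to 0.109) or the filter on dim probes (adjusted p = 0.0922). Alox5ap, the 5-lipoxygenase activating protein gene, and Lta4h, whose enzyme makes leukotriene B4, were named after their values were seen. Alox5ap read 0.38 higher (adjusted p = 0.151) and Lta4h 0.49 higher (adjusted p = 0.198, 0.0122 without hydroxyurea 2 and 0.0268 with hydroxyurea 1 and 4 alone). Ltb4r2, the low-affinity leukotriene B4 receptor gene, was 0.94 higher (SE 0.35, adjusted p = 0.142), with overlapping groups.

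Of 7 P2Y receptor and nucleotide signalling genes 1 rose (median 0.35), and 3 were higher and 0 lower at an unadjusted p under 0.05. P2ry2, a receptor for ATP and UTP, read -1.76, -1.95, -1.74 and -1.56 in hydroxyurea, and -3.31, -2.55, -3.07 and -3.17 in saline. It rose by 1.27 (SE 0.19, adjusted p = 0.00663) without overlap between groups. The P2ry2 difference was 0.70 with normexp and offset, 1.08 with normexp alone and 0.76 with the offset alone, and stayed called in each. Of 10 angiotensin system genes 0 were called by limma (median 0.11), and 2 had an unadjusted p under 0.05, 1 higher and 1 lower. The lowest p there belonged to Enpep, an angiotensin-cleaving aminopeptidase gene, 1.09 higher (SE 0.44, adjusted p = 0.163), and called without saline 2 (adjusted p = 0.0406). Agtr1a, the close relative of Agtr1b, was detected on all 8 arrays at -2.18, -2.84, -2.23 and -2.15 in hydroxyurea, and -2.40, -2.18, -2.18 and -2.16 in saline. Its difference was -0.12 (SE 0.18, adjusted p = 0.740).

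Of 10 synaptic vesicle genes 0 rose and 1 fell (median 0.02), and 0 were higher and 2 lower at an unadjusted p under 0.05. Syp, which encodes synaptophysin, fell by 0.93 (SE 0.21, adjusted p = 0.0363), a call that held without hydroxyurea 2 (adjusted p = 0.0122) but was lost on leaving out any other array (adjusted p from 0.0510 to 0.111) without the filter on dim probes (adjusted p = 0.0997) and with slide as a block (adjusted p = 0.0540). Svopl, the nearest relative of Svop, was 0.43 higher (SE 0.24, adjusted p = 0.306). Of 12 genes of the MAB21 and EVA1 families with SLIT ligands and ROBO receptors 0 were called by limma (median 0.10), and 2 had an unadjusted p under 0.05, 1 higher and 1 lower. Slit2 had the lowest p, 0.66 higher (SE 0.25, adjusted p = 0.149, and 0.0238 without hydroxyurea 2). Eva1a was 0.47 higher (adjusted p = 0.219), Eva1b 0.03 higher (adjusted p = 0.938), Mab21l1 read -0.09 (adjusted p = 0.878) and Mab21l2 -0.52 (adjusted p = 0.155). With hydroxyurea 1 and 4 alone Slit2 (0.89 higher, adjusted p = 0.0448) and Mab21l2 (-0.80, adjusted p = 0.0356) were called. A second probe of Mab21l2 read -0.66 with an adjusted p of 0.0331 over probes, so for this gene the probes fell on opposite sides of the threshold.

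Of 16 epidermal differentiation genes 4 rose and 0 fell (median 0.11), and 6 were higher and 0 lower at an unadjusted p under 0.05. Perp, a desmosomal gene that is also on the p53 list, rose by 0.83 (SE 0.14, adjusted p = 0.0115) and stayed called without any 1 array. Klf4, a barrier transcription factor gene, rose by 0.92 (SE 0.18, adjusted p = 0.0200), and Grhl3, which acts in neural tube and epidermal closure, by 0.74 (SE 0.14, adjusted p = 0.0202). Grhl1, named after its values were seen, rose by 0.99 (SE 0.20, adjusted p = 0.0242). The call of Klf4 was lost without hydroxyurea 1, hydroxyurea 4, saline 1, saline 2 or saline 3 (adjusted p from 0.0586 to 0.0702). Without the filter on dim probes the calls of Klf4 (adjusted p = 0.0648), Grhl3 (0.0720) and Grhl1 (0.0730) were lost too. Those of Grhl3 and Grhl1 were lost without hydroxyurea 1, hydroxyurea 4, saline 1, saline 3 or saline 4 (adjusted p from 0.0551 to 0.0758). Trp63, which activates Zfp750 in epidermis, read -0.61 on its brighter probe (SE 0.29, adjusted p = 0.226) and 0.39 on the other (adjusted p = 0.305 over probes), opposite in sign. With hydroxyurea 1 and 4 alone the brighter probe was called lower, at -1.11 (adjusted p = 0.0198).

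Chromosomal neighbours of the 10 were taken as the nearest 2 measured genes on each side in the RefSeq gene order. They lay 1 to 23 steps away in that order, since genes that were not measured were passed over, and were farthest for Zfp365 (10 to 23 steps) and Agtr1b (7 to 14 steps). Of 40 such neighbours 3 rose and 0 fell, against 2.78% of all features higher and 3.4% lower, with a median difference of 0.22. P2ry2, described above, is the next gene to P2ry6 and is the same measurement as in the receptor list. Ppp1r26, which encodes a regulatory subunit of protein phosphatase 1 and lies next to 1700007K13Rik, read 1.14, 0.26, 0.94 and 0.90 in hydroxyurea, and -0.18, -0.32, -0.28 and -0.43 in saline. It rose by 1.11 (SE 0.20, adjusted p = 0.0138), a call lost without hydroxyurea 4 (adjusted p = 0.0512). Metrnl, a secreted-factor gene near Zfp750, rose by 0.70 (SE 0.17, adjusted p = 0.0476). Its call held without hydroxyurea 2 (adjusted p = 0.00664), and was lost on leaving out any other array (adjusted p from 0.0881 to 0.135) with median centring (adjusted p = 0.0802), without the filter on dim probes (adjusted p = 0.131), with normexp without offset (adjusted p = 0.0506) or in a fit with slide as block (adjusted p = 0.0651). The count of 3 neighbours was 9 without hydroxyurea 2 and 1 without hydroxyurea 4, and with hydroxyurea 1 and 4 alone 5 rose and 2 fell. Of the other 37, the most negative were Idh1 near D630023F18Rik, at -1.61 (adjusted p = 0.0836), and Cideb near Ltb4r1, at -1.45 (adjusted p = 0.0535), both named after their values were seen.

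**Figure D5:**
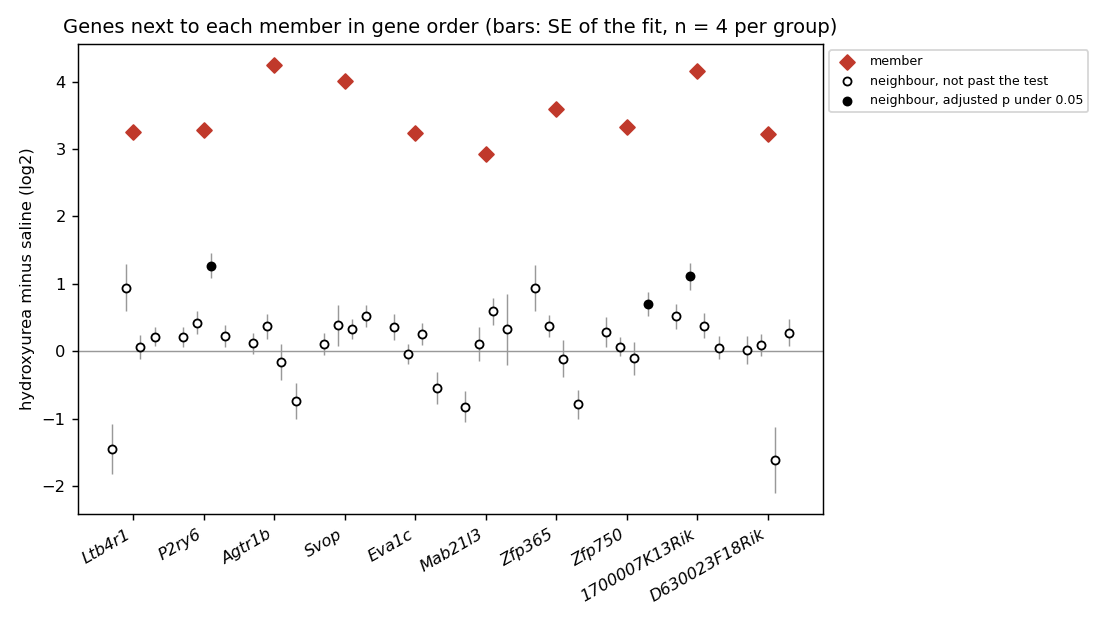
Difference between hydroxyurea and saline (log2) of each of the 10 genes (diamonds) and of the 2 nearest measured genes on each side (circles, left to right in gene order, with the SE of the fit; filled where the adjusted p was under 0.05). The filled circles are P2ry2 at 1.27, Metrnl at 0.70 and Ppp1r26 at 1.11, and the 10 genes lie between 2.93 and 4.24.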

How the data were processed

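Per the labels, total RNA of 4 hydroxyurea and 4 saline samples was hybridised to 1-colour Cy3 arrays. The deposited scanner files hold intensity values made with Agilent Feature Extraction 11.5.1.1, per the submitters' processing notes, with background subtraction per the file headers. The authors' deposited table of changed genes gives log2 values for 1346 probes, and no source used here states how they were normalized or tested. The genome build mm9 is named in the headers of 4 files.

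Spots marked as outliers (151 to 315 per array) and 3671 control spots were left out, and spots of a probe were averaged. The log2 processed signal was scaled by the array's 75th percentile. Probes well above background on at least 4 of 8 arrays and complete on all arrays were kept (30676 probes), and the probe with the highest mean stood for its gene. Symbols came from RefSeq accessions in the GRCm38.p6 table: 26582 of 55681 probes had 1 symbol, 0 several and 29099 none. Groups were compared with limma 3.58.1 in R 4.3.3 (lmFit, eBayes without trend), two-sided, with Benjamini-Hochberg adjustment over 23120 features and a threshold of 0.05. The array number limits the precision.

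The 10 genes and all gene lists were chosen with earlier results of these data known. Named by rule were the 10 genes, the next 10 called risers without overlap, up to 3 called genes per list (or the one with the lowest p), called neighbours, 5 p53 genes and the 3 of the p53 list with the lowest p, the 5 most similar profiles and 9 close relatives. Other settings were quantile normalization, median centring, no filter or a filter on all 8 arrays, the mean of a gene's probes, every probe on its own, slide as a block, each slide alone and each array left out. Normexp (offset 50) was meant for the mean signal, which is not in the files used here, and was run on the median signal, also with no offset, beside the processed signal with the offset added. These choices and the comparison of hydroxyurea 1 and 4 with saline were made after the data were seen.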

Additional observations from a re-analysis of the deposited data

Results flagged for a closer look

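Outlying arrays were looked for in the 10 genes and the other tested named genes, 90 groups of 4 arrays over 45 genes, with Dixon's criterion, by which chance alone sets apart about 1 in 20 groups. It set apart 3 values, none of them in the 10 genes. Agtr1a read -2.84 on hydroxyurea 2, low among the hydroxyurea arrays, and -2.40 on saline 1, low among the saline arrays. Lta4h read 3.58 on hydroxyurea 2, low beside 4.43, 4.48 and 4.44 on hydroxyurea 1, 3 and 4.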

How the results depend on the processing

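The number of features called was 1429. It was 615 with no filter on dim probes, 59 on slide 1 alone, 3 on slide 2 alone, 3787 with hydroxyurea 1 and 4 alone against saline, and 524 to 3739 on leaving out each array, the highest without hydroxyurea 2 and the lowest without hydroxyurea 4. The 23 called genes of the p53 list were 9 on slide 1, 0 on slide 2 and 20 to 27 on leaving out each array. The 8 called family genes were 3 without the filter, 0 on slide 1, 0 on slide 2, 17 with hydroxyurea 1 and 4 alone, and 3 to 17 on leaving out each array. The 3 called neighbours were 7 with normexp and offset, 6 with the offset alone, 6 with the filter on all 8 arrays, 0 on slide 1, 0 on slide 2, 7 with hydroxyurea 1 and 4 alone, and 1 to 9 on leaving out each array. Each slide alone holds only 2 arrays per group.

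Because the 10 genes were chosen for this difference and their groups do not overlap, its sign could hardly turn and is no sign of stability. Normexp with its offset moved all 10 by more than the SD between arrays, normexp without offset 6, the offset alone 9, and hydroxyurea 1 and 4 alone moved Mab21l3 (to 3.13). The filter on all 8 arrays leaves 5 of the 10. The slide contrasts called 0 of the 10 in every setting run. Median centring moved the median difference of all features from 0.04 to 0.16, so every difference is relative to the scaling. No paired analysis was possible because the labels give no replicate numbers that tie a hydroxyurea sample to a saline sample. Values of Agtr1b, P2ry6 and Zfp750 in saline lie below detection, so their differences are limited by signal over background.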
